A study of Mus musculus with 24 samples.

Results

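The 8 genes described here belong to the B lineage and to plasma cells: Jchain, Pou2af1, Mzb1, Irf4, Prdm1, Cd79a, Cd79b and Pax5. They were taken by symbol from the 24091 genes of a read count table, and each of the 8 was found there. The 8 were chosen by their measured values, with the fall of Jchain, Pou2af1 and Mzb1 in BC CML relative to CP CML LSKs already known from these data. Fold changes of the members between CML groups are therefore given as a description, without a test. The members were tested in miR-142 KO against WT LSKs, whose mice are not part of that CML comparison, and between the sexes. Correlations between mice were tested in each group. The sex test and part of the correlations use the CML libraries. Earlier results of these data were known at the choice, so these tests cannot be taken as independent of it.

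Bulk RNA-seq was performed on bone marrow LSKs, the Lin-Sca-1+c-Kit+ fraction that holds stem cells and multipotent progenitors, from 24 C57BL/6 (B6) mice. There were 6 mice in each group, 3 females and 3 males. WT mice carried intact miR-142 and no BCR-ABL, and miR-142 KO mice (Mir142 KO in the labels) lacked both copies of the gene. CP CML mice (labelled BCR-ABL+) were SCLtTA/BCR-ABL double transgenics with intact miR-142, and BC CML mice (labelled Mir142 KO BCR-ABL+) carried the same transgenes without miR-142. In both CML groups BCR-ABL was induced for 2 weeks by withdrawing tetracycline. SCL sequences drive the transactivator, so that the oncogene is made in blood stem and progenitor cells. The CML mice were matched for age, sex and transgene level in the study, and the ages are not given in the sources used here.

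B cells arise from lymphoid progenitors that rearrange their immunoglobulin genes, place an antibody on the surface as the B cell receptor, and may end as plasma cells that secrete it. Pax5 and Ebf1 hold cells in the B lineage, Cd79a and Cd79b carry the signal of the receptor, and Irf4 and Prdm1 drive the plasma cell programme, in which Mzb1 and Jchain serve antibody assembly. Several of these genes are not restricted to B cells: Irf4, Mzb1, Jchain and Cd79b are also transcribed in lymphoid progenitors or in plasmacytoid dendritic cells. A lineage-negative gate is meant to remove mature B cells.

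The gene deleted in 2 of the 4 groups encodes 2 mature miRNAs, shown because their loss defines the comparison that was tested. The sequences are from RefSeq (GRCm38.p6), on the plus strand of chromosome 11, written 5′ to 3′ with the seed, bases 2 to 8, in capitals.
mmu-miR-142a-5p: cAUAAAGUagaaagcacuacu
mmu-miR-142a-3p: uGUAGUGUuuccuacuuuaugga

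Total counts ranged from 16267965 to 24687077 per library. The primary transcript Mir142 had 68 to 153 counts in every WT and CP CML library and 0 in every miR-142 KO and BC CML library, as their labels say. Kit (c-Kit) and Ly6a (Sca-1), whose proteins the LSK gate selects, were detected in all libraries, as was Cd34. The sum of 8 genes of the gate and of stem cells, with Flt3 of lymphoid-primed progenitors among them, moved with miR-142, as several members did. It was 3485 to 4953 CPM in WT and 2499 to 3244 CPM in miR-142 KO LSKs. In CP CML it was 3069 to 3684 CPM and in BC CML LSKs 2325 to 2804 CPM, without overlap in either pair. The 8 genes did not move alike. Flt3 had a mean of 908 CPM in WT and 369 CPM in miR-142 KO LSKs, and Cd34 had 1212 and 1135 CPM. Hlf, a stem cell factor, had 471 and 188 CPM, and Ly6a 43.5 and 91.8 CPM. The part of this shift in the levels of the members was not tested. Some libraries stood apart by genes of other cells. Summed over 9 macrophage genes, WT replicate 3 had 1038 CPM (read counts scaled to the total of the library) against 57.0 to 196 in the other WT libraries, and CP CML replicates 4 to 6 had 369 to 475 CPM against 68.8 to 89.9 in replicates 1 to 3. BC CML replicates 5, 3 and 6 had 208, 146 and 122 CPM, against 45.9 to 65.8 in replicates 1, 2 and 4. Where BC CML libraries were left out for these genes, replicates 3 and 5 were dropped and replicate 6 was kept. Over 10 genes of NK and innate lymphoid cells, miR-142 KO replicates 1, 2 and 6 had 218 to 338 CPM and the other 3 had 151 to 185. Calls for the members in miR-142 KO against WT LSKs, the members' ratios in the CML groups and list genes whose call depends on these libraries are given with and without them, while correlations between mice are not, since fewer than 6 mice of a group would remain.

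The 8 genes differed widely in level. Per kilobase of the deposited gene length, WT LSKs held a mean of 209 RPKM of Jchain and 24.5 RPKM of Cd79b, followed by Mzb1 (6.86 RPKM), Pou2af1 (4.37 RPKM), Irf4 (2.47 RPKM), Cd79a (1.79 RPKM), Prdm1 (0.914 RPKM) and Pax5 (0.270 RPKM). In miR-142 KO LSKs the order was changed, and Cd79b led with a mean of 21.4 RPKM against 1.42 RPKM of Jchain. Jchain, therefore, was abundant in LSKs with miR-142 and scarce in LSKs without it, while Cd79b stood at a similar level in all 4 groups.

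**Figure D1:**
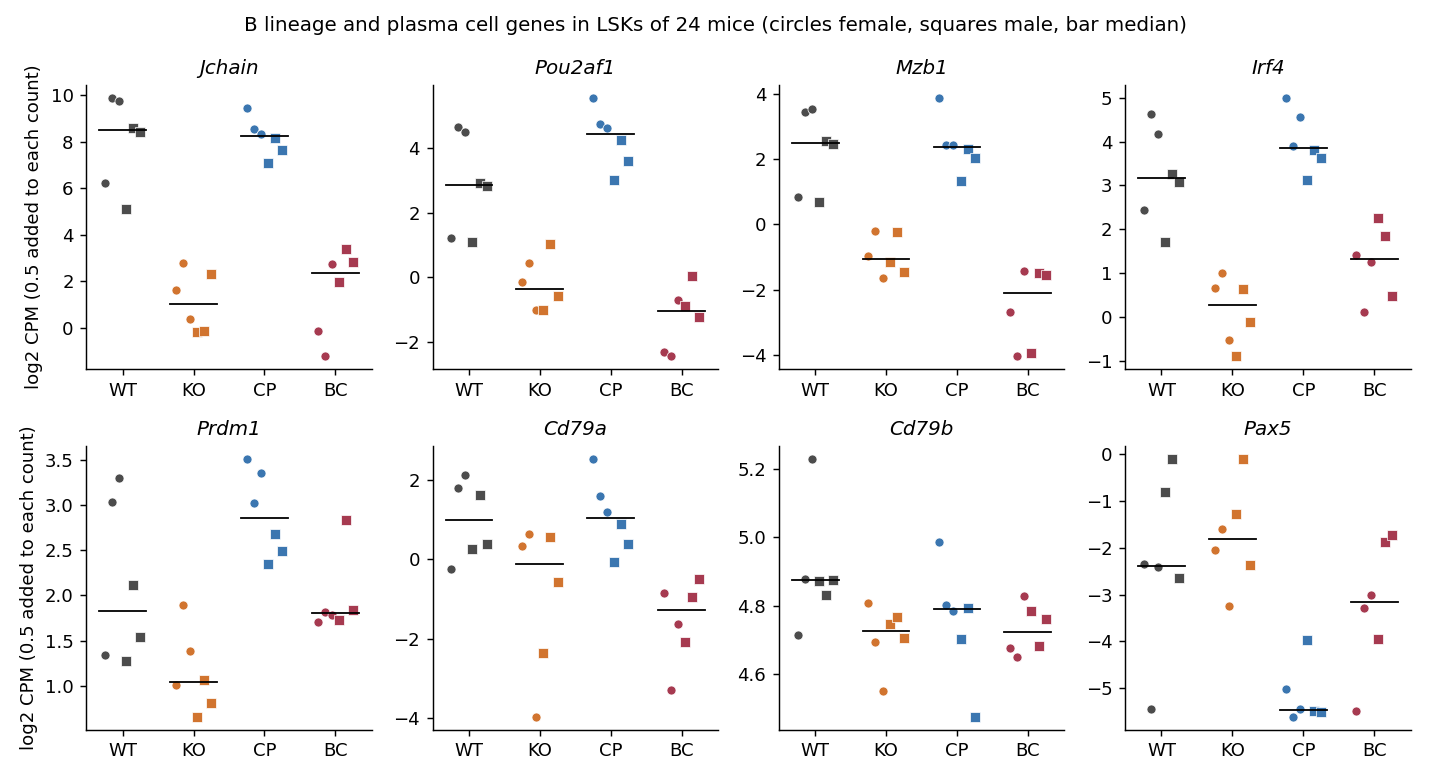
Level of each of the 8 genes in each of the 24 mice, on a log2 CPM axis that differs between panels, with 0.5 added to each count. Each point is 1 mouse (circles females, squares males), bars are group medians, and KO, CP and BC stand for the groups named above; Jchain, Pou2af1, Mzb1 and Irf4 of every miR-142 KO mouse lie below those of every WT mouse, and Cd79b stays between 22.2 and 37.5 CPM throughout.

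Loss of miR-142 from normal LSKs was examined first. Jchain, the joining chain that links antibody units into polymers and whose gene lies on chromosome 5 (mm10, 88519809 to 88527897, minus strand), ranged from 34.1 to 942 CPM in WT LSKs (median 366 CPM) and from 0.865 to 6.92 CPM in miR-142 KO LSKs (median 2.16 CPM). The lowest WT mouse was above the highest miR-142 KO mouse. Jchain fell by 7.15 on the log2 scale (SE 0.83, n = 6 mice each; edgeR quasi-likelihood test, adjusted p = 5.634e-07), and the ratio of the mean levels was 148. The WT mice also differed among themselves, with a mean of 438 ± 381 CPM (SD, n = 6). In bulk LSKs, fewer cells with these transcripts and less transcript per cell cannot be told apart.

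The plasma cell cofactors fell with it. Pou2af1 (chromosome 9, 51213690 to 51240079, plus strand) encodes the OCA-B coactivator that octamer-binding factors recruit at immunoglobulin promoters. It ranged from 2.09 to 25.3 CPM in WT (median 7.31 CPM) and from 0.467 to 2.03 CPM in miR-142 KO LSKs (median 0.767 CPM). The groups lay close without overlap, and Pou2af1 fell by 3.46 on the log2 scale (SE 0.60; adjusted p = 9.826e-05). Irf4 (chromosome 13, 30749258 to 30766927, plus strand), a transcription factor of plasma cells and of dendritic cells, ranged from 3.27 to 24.6 CPM in WT (median 8.98 CPM) and from 0.519 to 1.98 CPM in miR-142 KO LSKs (median 1.22 CPM). Its groups were apart as well, and it fell by 3.20 on the log2 scale (SE 0.48; adjusted p = 1.548e-05).

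Prdm1 (chromosome 10, 44437174 to 44528501, minus strand), which encodes the repressor Blimp-1, showed a smaller difference. It ranged from 2.41 to 9.78 CPM in WT (mean 5.01 ± 3.19 CPM) and from 1.56 to 3.70 CPM in miR-142 KO LSKs (mean 2.27 ± 0.784 CPM; SD, n = 6 each), and the groups overlapped. Prdm1 nonetheless fell by 1.08 on the log2 scale (SE 0.34; adjusted p = 0.01548). The call rested on the high WT mice: without WT replicate 2 the adjusted p was 0.0502, and without WT replicate 3 it was 0.06539.

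The B cell receptor chains behaved differently from each other. Cd79a (chromosome 7, 24897511 to 24902197, plus strand) had 0.826 to 4.37 CPM in WT (median 2.17 CPM) and 0.0425 to 1.54 CPM in miR-142 KO LSKs (median 0.944 CPM). Its groups overlapped, and its log2 fold change of -1.41 (SE 0.56) missed the threshold of 0.05 narrowly (adjusted p = 0.05238). Cd79b (chromosome 11, 106311341 to 106314562, minus strand) had 26.2 to 37.5 CPM in WT (median 29.3 CPM) and 23.4 to 28.0 CPM in miR-142 KO LSKs (median 26.4 CPM). The log2 fold change of Cd79b was -0.13 (SE 0.08; adjusted p = 0.2043), measured on 551 to 894 counts per library. Its row overlaps that of Mir5098 on the other strand, and the strand setting of the counting is not given.

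Pax5 (chromosome 4, 44531506 to 44710440, minus strand), the factor that commits cells to the B lineage, was scarcely detected. It had 0 to 21 counts per library in WT and 2 to 22 in miR-142 KO LSKs, did not pass the filter on low counts and was not tested. Its row overlaps that of 5730488B01Rik on the other strand, so that its few reads are uncertain. In CP CML LSKs 5 of 6 libraries had 0 counts, which allows up to 3 counts per library, and the sixth had 1. The 6 BC CML libraries held 18 counts in all.

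Mzb1 (chromosome 18, 35647265 to 35649367, minus strand) encodes a chaperone of the endoplasmic reticulum that helps antibody assembly. It ranged from 1.59 to 11.6 CPM in WT (median 5.64 CPM) and from 0.297 to 0.838 CPM in miR-142 KO LSKs (median 0.460 CPM). The groups were apart, and Mzb1 fell by 3.45 on the log2 scale (SE 0.53; adjusted p = 1.944e-05).

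Of the 7 members tested, 5 fell when miR-142 was lost from normal LSKs and none was higher, beside 16.4% of all 13520 tested genes that were lower and 36.3% that were called in either direction. Jchain, Pou2af1, Mzb1 and Irf4 showed no overlap, beside 8.73% of tested genes with every miR-142 KO value below every WT value. The median log2 fold change over the 7 was -3.20, against 0.01 over all tested genes. The 7 do not include Pax5, and a gene that passed the filter through WT alone was bound to be lower, so these counts describe the genes and are no evidence about the group. Without WT replicate 3 and miR-142 KO replicates 1, 2 and 6, an alternative chosen after seeing the data, 4 members were lower. The log2 fold change of Jchain was then -8.41 (adjusted p = 4.948e-05), that of Irf4 -3.42, that of Mzb1 -3.22 and that of Pou2af1 -3.09, and Prdm1 lost its call (-0.90; adjusted p = 0.09378).

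In the CML groups, whose values chose the members, the same genes lay far apart. Jchain ranged from 135 to 703 CPM in CP CML (median 301 CPM) and from 0.408 to 10.5 CPM in BC CML LSKs (median 5.21 CPM), a log2 fold change of -6.04. Pou2af1 ranged from 8.13 to 47.5 CPM (median 22.0 CPM) and from 0.163 to 0.999 CPM (median 0.461 CPM), a log2 fold change of -5.52. For both genes every BC CML mouse was below every CP CML mouse.

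Mzb1 ranged from 2.47 to 14.6 CPM in CP CML (median 5.15 CPM) and from 0.0408 to 0.346 CPM in BC CML LSKs, where it had 1 to 8 counts per library, a log2 fold change of -4.82. Irf4 had means of 17.6 ± 8.58 CPM and 2.63 ± 1.38 CPM (SD, n = 6 each; log2 fold change -2.67), and Cd79a had medians of 2.04 and 0.398 CPM (log2 fold change -2.60). These 3 were also without overlap. Prdm1 (7.25 and 3.46 CPM; log2 fold change -0.89) and Cd79b (27.6 and 26.4 CPM; log2 fold change 0.03) overlapped between the groups. Thus 5 of the 7 members were apart, beside 12.6% of tested genes lower without overlap, a count that the choice of members used. Without CP CML replicates 4 to 6 and BC CML replicates 3 and 5, an alternative chosen after seeing the data, the log2 ratio of the mean levels moved from -6.10 to -7.24 for Jchain, from -5.60 to -6.71 for Pou2af1, from -4.92 to -5.96 for Mzb1 and from -0.95 to -1.54 for Prdm1, which was then apart as well. All CP CML mice left were females, while BC CML kept both sexes, so that sex was not balanced there.

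The difference between the log2 fold change in BCR-ABL and that in normal LSKs on miR-142 loss was 1.11 for Jchain, -2.07 for Pou2af1, -1.36 for Mzb1, -1.19 for Cd79a, 0.53 for Irf4, 0.19 for Prdm1 and 0.16 for Cd79b. Since the CML fold changes chose the members, these differences were not tested.

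**Figure D2:**
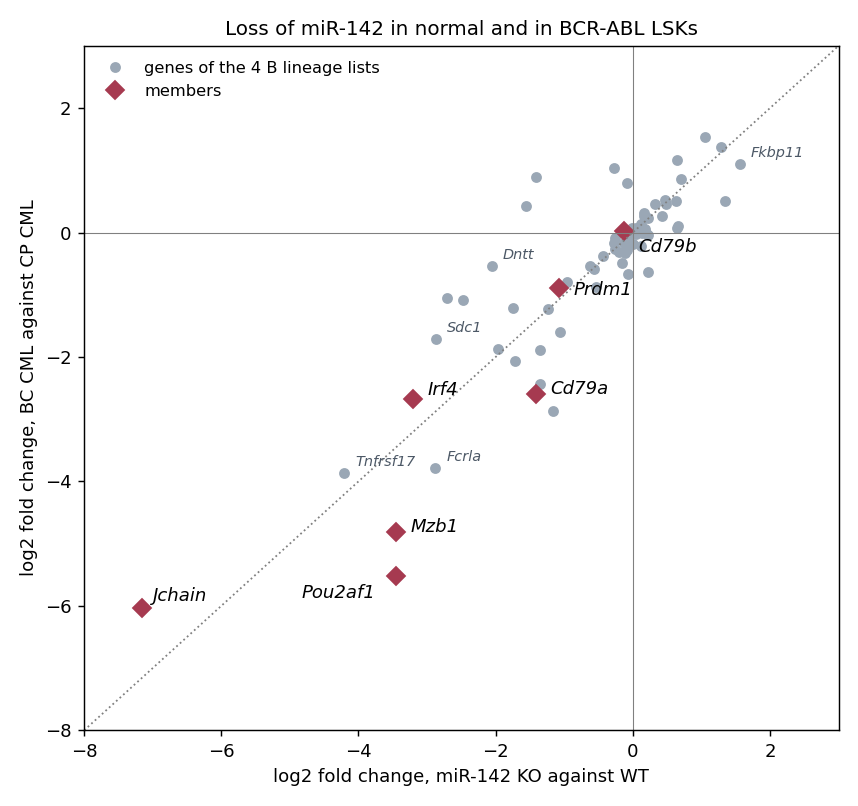
Log2 fold change of miR-142 KO against WT LSKs (x axis) and of BC CML against CP CML LSKs (y axis) for the 7 members tested (diamonds) and 63 other genes of 4 B lineage lists (circles); the dotted line marks equal change. Jchain (-7.15 and -6.04) lies farthest from 0, Pou2af1 and Mzb1 lie below the line, and Cd79b lies at -0.13 and 0.03.

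BCR-ABL itself separated none of the 7 members that passed the filter on low counts. Pax5, which did not pass it, held 44 counts over the 6 WT libraries and 1 over the 6 CP CML libraries. The ratio of its mean levels, CP CML over WT, was 0.0219. Its groups overlapped, with 1 WT library at 0 counts, and it was not tested. In CP CML relative to WT LSKs, log2 fold changes were -0.35 for Jchain, 1.09 for Pou2af1, 0.02 for Mzb1, 0.65 for Irf4, 0.68 for Prdm1, 0.12 for Cd79a and -0.09 for Cd79b, and all 7 groups of values overlapped, beside 22.1% of tested genes without overlap in either direction. Without CP CML replicates 4 to 6 and WT replicate 3, again chosen after seeing the data, all 7 still overlapped, but the log2 ratio of the mean levels turned from -0.39 to 0.38 for Jchain and from -0.01 to 0.72 for Mzb1, and it moved from 1.05 to 1.90 for Pou2af1. This sets CP CML females against WT mice of both sexes, so that sex and the macrophage genes cannot be told apart. In BC CML relative to miR-142 KO LSKs, the log2 fold changes were 0.77, -0.98, -1.34, 1.18, 0.87, -1.07 and 0.07 in the same order, again with overlap in all 7, beside 11.2% of tested genes without. By mean level, WT and CP CML LSKs held the upper 2 places for Jchain, Pou2af1, Mzb1, Irf4, Prdm1 and Cd79a, and neither of these neighbours was apart from the other. Prdm1 was the least clear of them, with the BC CML mean of 4.02 ± 1.52 CPM within the spread of WT (5.01 ± 3.19 CPM).

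The mice of a group did not carry equal amounts of these transcripts, and in WT and CP CML mice several members ranked the animals alike. Among WT mice Jchain, Pou2af1 and Irf4 ranked the 6 animals identically, from replicate 2 through 3, 5, 6 and 1 to 4. Mzb1 and Prdm1 exchanged only the first pair. In CP CML mice Jchain, Pou2af1 and Cd79a ranked all 6 identically, with replicate 1 highest and replicate 4 lowest, and Mzb1, Irf4 and Prdm1 differed from that order only by exchanging replicates 2 and 3.

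Correlations of each member with Jchain were computed on log2 CPM within each group of 6 mice, 27 in all, with exact two-sided permutation tests and Benjamini-Hochberg adjustment over the 27. In WT mice Pearson's r was 0.965 for Pou2af1 (exact p = 0.00139, adjusted p = 0.0125; Spearman's rho = 1, exact p = 0.00278, adjusted p = 0.0187). It was 0.986 for Mzb1 (exact p = 0.00417, adjusted p = 0.0187; rho = 0.943, exact p = 0.0167, adjusted p = 0.05) and 0.964 for Irf4 (exact p = 0.00278, adjusted p = 0.015; rho = 1, exact p = 0.00278, adjusted p = 0.0187). Without the 2 mice farthest from the median of Jchain, here the lowest replicates 4 and 1, r was 0.998, 0.989 and 0.985. The 3 relations did not rest on these low mice. The highest replicates 2 and 3 stayed in, so that the part of these mice was not tested. Prdm1 (r = 0.861, exact p = 0.0375) and Cd79a (r = 0.837, exact p = 0.0417) did not pass adjustment (adjusted p = 0.101 and 0.102). Pax5, at 0 to 21 counts, had r = -0.512 (exact p = 0.321).

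In CP CML mice r with Jchain was 0.990 for Pou2af1 (exact p = 0.00139, adjusted p = 0.0125), 0.972 for Mzb1 (exact p = 0.00278, adjusted p = 0.015), 0.992 for Cd79a (exact p = 0.00139, adjusted p = 0.0125) and 0.898 for Prdm1 (exact p = 0.00833, adjusted p = 0.0281). The corresponding rho was 1, 0.943, 1 and 0.943, with exact p = 0.00278 and adjusted p = 0.0187 for the value of 1 and exact p = 0.0167 and adjusted p = 0.05 for 0.943. Without the 2 farthest mice r was 0.987, 0.961, 0.982 and 0.751. Irf4 (r = 0.909, exact p = 0.0167, adjusted p = 0.05) was at the threshold and had r = 0.503 without the farthest 2, so that its relation rested on them. Replicate 1, the highest CP CML mouse, was also the library with the fewest counts, and a part of depth in its position was not tested. Every CP CML female was above every male for Jchain, Pou2af1, Mzb1, Irf4, Prdm1 and Cd79a. The males also had the higher macrophage sums. The permutations exchanged mice across the sexes, so the correlations hold this difference as well, and its part was not tested.

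Where Jchain was low, most relations with it did not pass. In miR-142 KO mice none of 7 relations passed, with r from -0.325 for Pax5 to 0.539 for Irf4 and a smallest exact permutation p of 0.237. In BC CML mice Pou2af1 passed (r = 0.931, exact p = 0.00833, adjusted p = 0.0281), but its rho of 0.829 did not (exact p = 0.0583, adjusted p = 0.131), and r was 0.615 without the 2 farthest mice. Pou2af1 and Mzb1 had 1 to 49 counts per library in these 2 groups. By Jchain, miR-142 KO replicates 2, 6 and 1 came first, which also had the highest sums of NK and innate lymphoid genes. BC CML replicates 5, 6 and 3 came first in their group and had its highest macrophage sums. The part of these libraries in the relations was not tested. Whether the relations differ between groups was not tested either. The 78 relations among the other members were examined in the same way after seeing the data. In miR-142 KO mice r was 0.909 for Pou2af1 with Mzb1 (exact p = 0.0194, adjusted p = 0.0798) and 0.869 for Irf4 with Cd79a (exact p = 0.0111, adjusted p = 0.0542). None of the 21 in this group passed adjustment, 3 were below 0.05 unadjusted, and without the 2 farthest mice these r were 0.604 and 0.965. Cd79b did not pass in any group, with r of 0.530 in WT and 0.771 in CP CML mice and of 0.028 in miR-142 KO and 0.614 in BC CML mice (exact p from 0.0806 to 0.979).

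**Figure D3:**
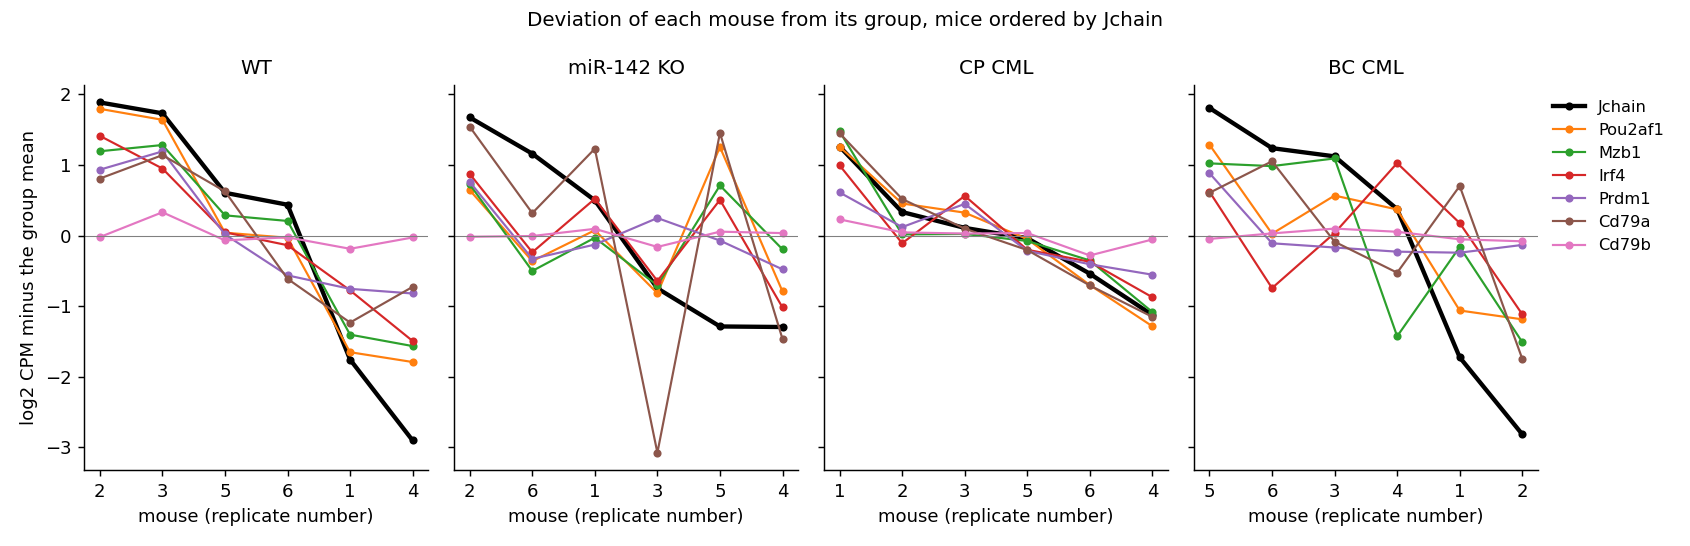
Deviation of each mouse from the mean of its group in log2 CPM (y axis), with the 6 mice of each group ordered from the highest to the lowest Jchain (x axis, replicate numbers). Jchain is the thick black line and the other 6 lines are Pou2af1, Mzb1, Irf4, Prdm1, Cd79a and Cd79b; in WT and CP CML mice the lines fall together except Cd79b, and in miR-142 KO mice they cross.

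Sex was compared across all 24 mice with group as a covariate. None of the 7 members was called by the quasi-likelihood test, beside 0.651% of all tested genes, nor by the likelihood ratio test or DESeq2. At an unadjusted p below 0.05 the counts were 1, 1 and 2. All 7 log2 fold changes of males against females were below 0, from -0.82 for Pou2af1 (SE 0.40; adjusted p = 0.2971) to -0.07 for Cd79b. Among CP CML mice, however, every female was above every male for 6 of the 7 (all but Cd79b), beside 10.9% of tested genes: Jchain was 316 to 703 CPM in the 3 females and 135 to 286 CPM in the 3 males. This was noticed after seeing the data, and the 3 males are the same libraries that carried the macrophage genes, so that sex and these libraries cannot be told apart. The effect of miR-142 loss did not differ detectably between males and females for any of the 7 (beside 0.00740% of tested genes; 0 at an unadjusted p below 0.05 by each of the 3 tests), with a difference of 0.51 (SE 1.45) for Jchain and 1.84 (SE 1.04) for Pou2af1 on the log2 scale.

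Promoter sequence was examined for members that moved together. RefSeq (GRCm38.p6) start sites were used for 6 of the 8 members, and the windows of Mzb1 and Cd79b were left out. The 250 bases before each start were searched on both strands for an octamer (ATGCAAAT, bound by the partners of the Pou2af1 protein), an E-box (CAGGTG, bound by E proteins), an EBF core (CCCNNGGG) and a PRDM1 core (GTGAAAG). The E-box was found in Cd79a, starting 154 bases before the start site, and in Prdm1, starting 87 bases before it, and 17.2% of all 32851 promoters held one. The octamer (1.60% of all promoters), the EBF core (11.8%) and the PRDM1 core (3.57%) were not found in these 6 windows, which says only that these letters do not occur there. The windows of Jchain (chr5:88527898-88528147, minus strand) and Pou2af1 (chr9:51213440-51213689, plus strand) are printed because these 2 genes ranked the WT and the CP CML mice identically, and that of Cd79a (chr7:24897247-24897496, plus strand) because it holds a match, in capitals. Each is written 5′ to 3′ on the strand of the gene.
Jchain: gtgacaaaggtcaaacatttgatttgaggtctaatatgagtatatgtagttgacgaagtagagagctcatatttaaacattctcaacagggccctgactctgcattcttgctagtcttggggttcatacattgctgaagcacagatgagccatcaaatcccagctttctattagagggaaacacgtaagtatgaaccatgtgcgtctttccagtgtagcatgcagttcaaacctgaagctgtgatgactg
Pou2af1: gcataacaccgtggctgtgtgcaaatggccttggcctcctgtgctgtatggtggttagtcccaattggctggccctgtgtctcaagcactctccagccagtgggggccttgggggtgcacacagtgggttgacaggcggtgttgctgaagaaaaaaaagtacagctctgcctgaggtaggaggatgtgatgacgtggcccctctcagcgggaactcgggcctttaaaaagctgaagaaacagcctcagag
Cd79a: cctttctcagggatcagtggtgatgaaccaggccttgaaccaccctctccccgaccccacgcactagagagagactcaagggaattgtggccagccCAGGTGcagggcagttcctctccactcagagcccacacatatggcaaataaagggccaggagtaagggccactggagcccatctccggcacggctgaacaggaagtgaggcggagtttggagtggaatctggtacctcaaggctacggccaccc

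Other genes of the B lineage were taken from 4 lists that leave out the 8 members, 63 genes after the filter on low counts. A list gene that passed this filter through WT or CP CML libraries alone was bound to be lower without miR-142. The counts of lower genes therefore describe the genes and are no evidence about the lists. In miR-142 KO relative to WT LSKs, 20 were lower, 11 were higher and 32 were not called, with a median log2 fold change of -0.08, beside the 36.3% of all genes called. In BC CML relative to CP CML LSKs, 21 were lower and 11 higher (17.6% of all tested genes were lower, and 38.0% were called in either direction). Without CP CML replicates 4 to 6 and BC CML replicates 3 and 5, which had the highest macrophage sums of their groups, 18 were lower and 4 higher. Only females were left in CP CML in this fit. Immunoglobulin constant genes were not analysed here.

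Of 8 early lymphoid genes, which include recombination enzymes and receptors of lymphoid progenitors, 4 were lower without miR-142 in normal LSKs and none was higher (beside 36.3% of all tested genes called in either direction). Il7r, the interleukin 7 receptor, was not called (log2 fold change -0.08; adjusted p = 0.8558). Dntt, the polymerase that adds bases at antibody gene joints, went from 763 to 1361 CPM in WT (median 957 CPM) to 49.0 to 340.3 CPM in miR-142 KO LSKs (median 233 CPM), and fell by 2.06 on the log2 scale (SE 0.31; adjusted p = 1.804e-05). Its groups did not overlap. Flt3, a cytokine receptor of lymphoid-primed progenitors, fell by 1.23 (SE 0.15; adjusted p = 9.163e-07), Rag2 fell by 1.56 (SE 0.27; adjusted p = 7.398e-05) and Ly6d, a surface marker of B-biased progenitors, fell by 1.36 (SE 0.42; adjusted p = 0.01449).

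In BC CML relative to CP CML LSKs 2 of the 8 were lower and 1 was higher, with a median log2 fold change of 0.61. This 37.5% is near the 38.0% of all tested genes called. Flt3 fell by 1.23 (SE 0.15; adjusted p = 1.054e-06) and Ly6d fell by 2.44 (SE 0.47; adjusted p = 0.000246). Il7r rose by 0.79 (SE 0.30; adjusted p = 0.03879), a call lost in 9 of 24 fits without 1 library and without the 5 CML libraries with macrophage genes (adjusted p = 0.2544). Dntt and Rag2, with log2 fold changes of -0.54 (adjusted p = 0.1687) and 0.43 (adjusted p = 0.2381), were not called. Both were already lower in CP CML than in WT LSKs, with log2 fold changes of -2.04 for Dntt (adjusted p = 2.465e-05) and -2.95 for Rag2 (adjusted p = 7.73e-08), and none of the 8 was higher in CP CML. The difference between the effect in BCR-ABL and in normal LSKs was 2.00 for Rag2 (SE 0.39; adjusted p = 0.005115) and 1.53 for Dntt (SE 0.43; adjusted p = 0.04402), and that of Dntt was lost in 18 of 24 fits without 1 library.

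Genes of B cell receptor signalling moved in both directions. In miR-142 KO relative to WT LSKs, 6 of 20 were lower and 4 higher (50% called, beside 36.3% of all tested genes). In BC CML relative to CP CML LSKs 5 were lower and 2 higher. This 35% is near the 38.0% of all tested genes. Bank1, a scaffold of the receptor, fell by 2.71 in normal LSKs (SE 0.29; adjusted p = 1.748e-07) and fell by 1.05 in CML LSKs (SE 0.28; adjusted p = 0.004103), an effect that differed by 1.66 (SE 0.39; adjusted p = 0.0189). Without the 5 CML libraries that carried macrophage genes Bank1 was not called there (-0.53; adjusted p = 0.2815), and the difference was not fitted without them. Fcrla, an Fc receptor-like protein of B cells, fell by 2.88 (SE 0.56; adjusted p = 0.0002888) and fell by 3.79 (SE 0.60; adjusted p = 3.102e-05). Fcrla had 2 to 12 counts per miR-142 KO and 1 to 7 per BC CML library. It passed the filter on low counts through WT and CP CML libraries, so a fall was built in. Cd72, an inhibitory coreceptor, fell by 0.96 (SE 0.11; adjusted p = 6.235e-07) and fell by 0.79 (SE 0.11; adjusted p = 1.064e-05).

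Fcgr2b, the inhibitory Fc receptor, which myeloid cells also carry, went the other way. It rose by 1.34 on the log2 scale in miR-142 KO relative to WT (SE 0.14; adjusted p = 1.533e-07) and by 0.51 in BC CML relative to CP CML LSKs (SE 0.14; adjusted p = 0.004822). The second call of Fcgr2b was lost without the 5 CML libraries with macrophage genes (0.47; adjusted p = 0.0808). The broadly expressed kinase Btk varied little, at a mean of 207 CPM in WT, 197 CPM in miR-142 KO and 209.7 CPM in both CML groups, with log2 fold changes of -0.01 (adjusted p = 0.9196) and 0.07 (adjusted p = 0.2452).

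Among 17 transcription factors of the B lineage, 5 were lower and 1 higher without miR-142 in normal LSKs, and 7 were lower and 3 higher in CML LSKs. The 35.3% called in normal LSKs is near the 36.3% of all tested genes. In CML LSKs 58.8% were called, beside 38.0% of all tested genes. Bcl11a fell by 0.57 (adjusted p = 5.661e-06) and fell by 0.58 (adjusted p = 5.097e-06), and Sox4 fell by 0.63 (adjusted p = 1.257e-05) and fell by 0.54 (adjusted p = 8.585e-05). Both act early in lymphoid development, and their means in WT LSKs were 297 and 271 CPM. Myb was the 1 factor that was higher in normal LSKs, by 0.22 (adjusted p = 0.01194), a call lost with only the samples compared (adjusted p = 0.0598). The 3 that were higher in CML LSKs were Myb (log2 fold change 0.24; adjusted p = 0.005049, and 0.1944 without the 5 libraries) and, named after their values were seen, Ikzf3 (1.37, SE 0.54; adjusted p = 0.04761) and Lef1 (1.53, SE 0.57; adjusted p = 0.03782).

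Genes of the plasma cell and secretory list moved in both directions. In miR-142 KO relative to WT LSKs, 5 of 18 were lower and 6 higher, and in BC CML relative to CP CML LSKs 7 were lower and 5 higher. The shares called were 61.1% and 66.7%, beside 36.3% and 38.0% of all tested genes. Sdc1 (CD138), a surface protein of plasma cells, went from 16.2 to 37.3 CPM in WT (median 29.5 CPM) to 1.19 to 6.92 CPM in miR-142 KO LSKs (median 3.17 CPM), and it fell by 2.87 (SE 0.33; adjusted p = 4.951e-07). Tnfrsf17, the survival receptor BCMA, fell by 4.21 (SE 0.77; adjusted p = 0.0001631) from a mean of 1.21 CPM to 0 to 2 counts per library. In BC CML libraries Tnfrsf17 had 0 to 5 counts. It passed the filter on low counts through WT and CP CML libraries, so a fall was built in and its call is only a description.

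Fkbp11 and Hsp90b1, which take part in general protein folding in the endoplasmic reticulum, were higher. Fkbp11 rose by 1.56 (SE 0.17; adjusted p = 2.992e-07) and Hsp90b1 by 0.47 (adjusted p = 0.000724) in normal LSKs, and by 1.10 (adjusted p = 1.72e-05) and 0.53 (adjusted p = 0.0002188) in CML LSKs. Xbp1, the factor that expands secretion in plasma cells, was not called in either (log2 fold changes of 0.17 and 0.32; adjusted p = 0.3676 and 0.07594). Sdc1 also differed between CP CML and WT LSKs, where it fell by 1.65 (SE 0.31; adjusted p = 0.0002107), whereas Tnfrsf17 was not called there (-0.30; adjusted p = 0.6728). Over all 63 genes, 18 were lower and 18 higher in CP CML than in WT LSKs (45.4% of all tested genes were called), and 20 were lower and 16 higher in BC CML than in miR-142 KO LSKs (39.6%). The effect of miR-142 loss differed with BCR-ABL for 5 of the 63, beside 3.99% of all tested genes.

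**Figure D4:**
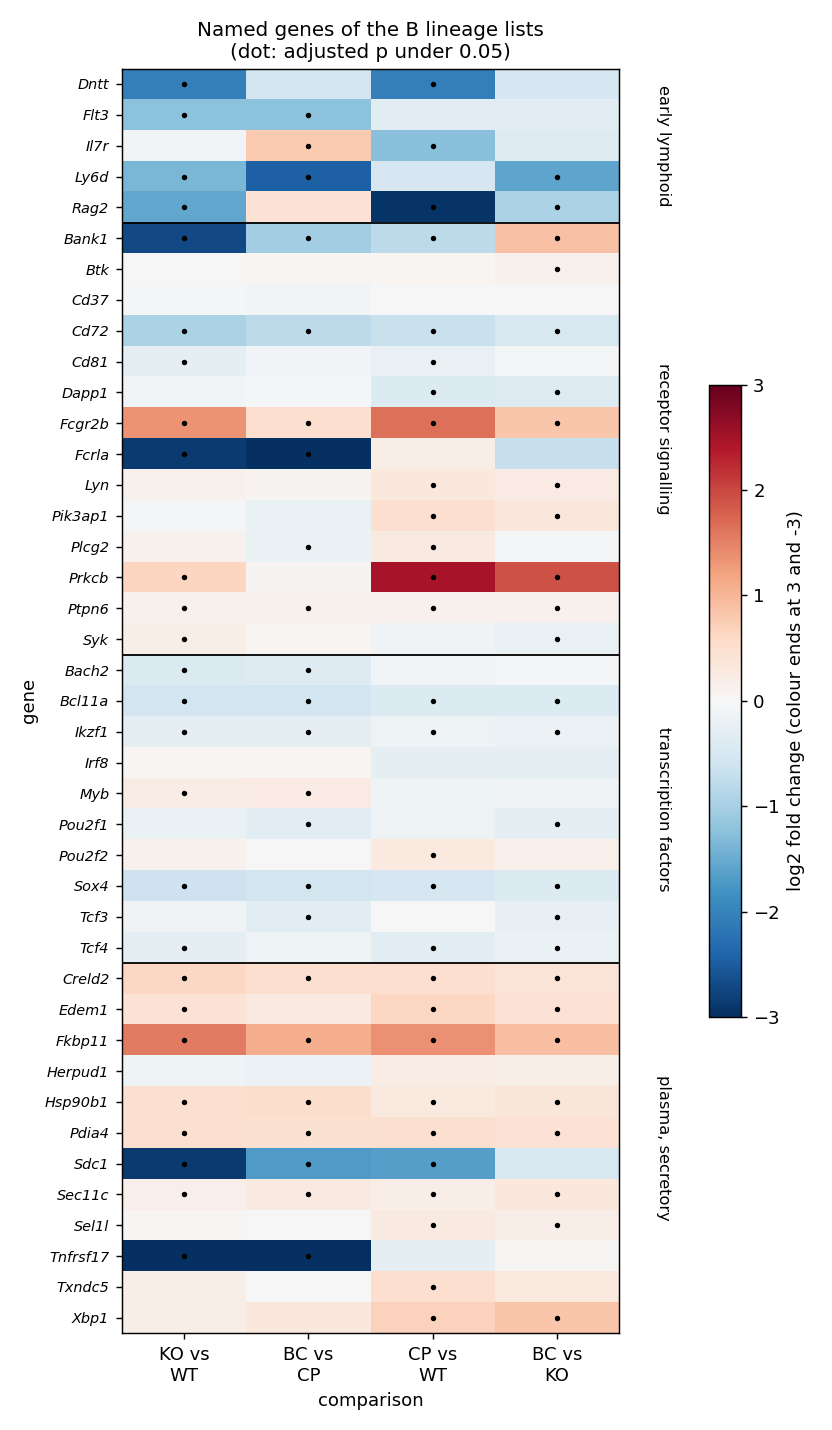
Log2 fold changes (colour, red higher and blue lower) of the named genes of the 4 B lineage lists in 4 comparisons (columns), with a dot where the edgeR adjusted p was under 0.05. Sdc1 and Tnfrsf17 are blue and Fkbp11 and Hsp90b1 red in both comparisons of LSKs without and with miR-142, and Dntt and Rag2 are blue in miR-142 KO and in CP CML relative to WT LSKs.

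The genes whose levels followed a member most closely were ranked by Pearson's r on log2 CPM among 11756 named genes, over the 24 libraries after subtracting group means. These are descriptions of libraries that share cells and depth. Cacna1h, a calcium channel subunit, ranked first for Jchain (r = 0.807), Pou2af1 (0.824) and Prdm1 (0.838), and was the third for Mzb1 (0.745). Cacna1e, another calcium channel subunit, ranked first for Mzb1 (0.858) and second for Pou2af1 (0.799). For Irf4 the first 2 were Fam46c (0.836) and Fcrla (0.808), for Cd79a they were Stox2 (0.832) and Ero1lb (0.828), followed by Ly6d (0.826), and for Cd79b the first was Prcp (0.752). The mean of Cacna1h was 3.69 CPM in WT and 5.97 CPM in CP CML LSKs, against 0.144 CPM in miR-142 KO and 0.268 CPM in BC CML LSKs. Not every neighbour had this pattern of means. Slpi, the third for Jchain (0.794), had 8.8 CPM in WT, 97 in CP CML, 23.7 in miR-142 KO and 91.9 in BC CML LSKs. Adam19, the second for Prdm1 (0.822), had 2.74, 4.84, 10.03 and 14.1 CPM in the same order.

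With group means left in, the 5 genes closest to Jchain over the 24 libraries were Rasgrp3 (r = 0.947), Cacna1h (0.942), Sspo (0.920), Mir142 itself (0.919) and Traf3ip2 (0.918). Rasgrp3, an activator of Ras in B cells, had a mean of 9.32 CPM in WT and 8.64 CPM in CP CML LSKs, against 2.39 and 2.04 CPM in the groups without miR-142. These r include the difference between groups, which for Jchain is larger than the spread within them.

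Markers of cells that could contribute these transcripts were summed per library. For plasma cells 4 of 7 listed genes were in the table, among them Sdc1 and Tnfrsf17, and their sum ranged from 24.2 to 58.7 CPM in WT and 10.4 to 31.2 CPM in CP CML LSKs, and from 2.46 to 14.4 CPM in miR-142 KO and 3.19 to 5.34 CPM in BC CML LSKs. WT replicates 3 and 2, which had the most Jchain, also had the highest sums, and CP CML replicate 1 and miR-142 KO replicate 2 led their groups in both. The orders differed elsewhere. WT replicate 6 had the lowest sum (24.2 CPM) with 345 CPM of Jchain, and replicate 4 had 26.1 CPM with 34.1 CPM of Jchain. CP CML replicate 5 was above replicates 2 and 3 by sum and below them by Jchain. In BC CML replicate 3 led by sum and replicate 5 by Jchain. For mature B cells (6 of 7 genes) the sum was 2.93 to 9.91, 1.88 to 4.11, 0.722 to 4.96 and 0.889 to 2.04 CPM in the same order of groups. Ms4a1 (CD20), a surface protein of mature B cells, had 3 to 36 counts per WT library and 0 to 15 per miR-142 KO library.

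For plasmacytoid dendritic cells (11 of 11 genes) the sum was 695 to 999 CPM in WT and 519 to 753 CPM in CP CML LSKs, and 466 to 875 CPM in miR-142 KO and 466 to 677 CPM in BC CML LSKs. Its defining gene Siglech had 27 to 259 counts per library in WT and 4 to 35 in CP CML LSKs, and 0 to 34 in miR-142 KO and 0 to 9 in BC CML LSKs, and Klk1 was at 0 in all 24 libraries. The genes of this list did not move together. In WT, CP CML, miR-142 KO and BC CML LSKs the means of Ccr9 were 12.3, 4.4, 38.9 and 17.2 CPM. Those of Bst2 were 33.7, 27.1, 45.5 and 35.3 CPM, and those of Runx2 were 265, 211, 196 and 138 CPM. For T cells (10 of 13 genes) the sums were 64.8 to 92.4, 44.8 to 60.7, 36.1 to 103 and 32.9 to 45.6 CPM, and for neutrophils (8 genes) 16.0 to 71.3, 31.0 to 52.7, 45.6 to 217 and 34.3 to 76.8 CPM. For erythroid cells (6 of 8 genes) they were 12.1 to 41.0, 3.23 to 11.5, 3.40 to 22.6 and 1.92 to 5.39 CPM. The part of plasma cells, B cells or dendritic cells in the levels of Jchain and the other members was not tested.

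**Figure D5:**
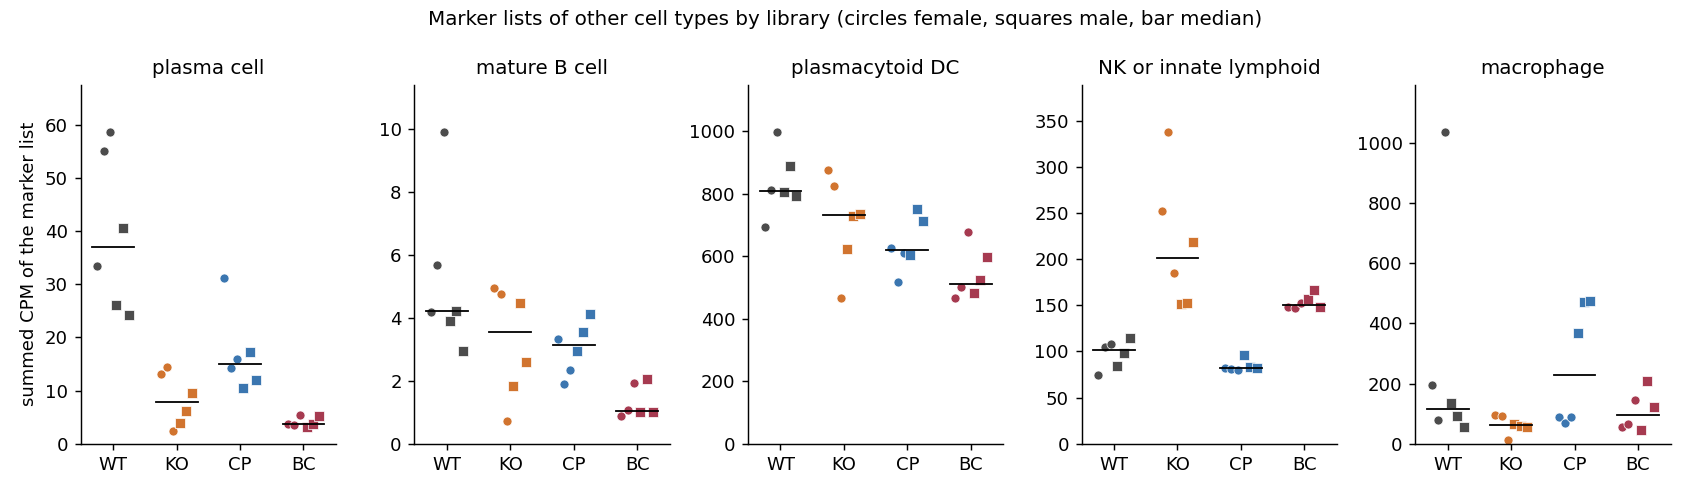
Summed CPM (y axes from 0, differing between panels) of 5 marker lists in each of the 24 libraries, by group (circles females, squares males, bars medians). The plasma cell panel has its highest median in WT LSKs (37.0 CPM), the NK and innate lymphoid panel in miR-142 KO LSKs (202 CPM), and 1 WT and 3 CP CML libraries stand out for macrophage markers.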

How the data were processed

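LSKs of 24 mice were profiled by bulk RNA-seq (Kapa mRNA HyperPrep libraries, 2 x 101 bases). The authors deposited raw read counts per gene and gene lengths; per the labels and the study's methods, they trimmed with FASTP and Trimmomatic, aligned with STAR 2.6.0 to mm10, and used HTSeq 0.11.1 for counting. The annotation and strand setting are not given in the sources used here. The methods give 5 mice per group; all 6 deposited per group were used. Replicate numbers only name mice, females 1 to 3 and males 4 to 6. The counts of no pair of replicates agreed within sampling noise (chi-square per degree of freedom 5.95 to 64.7 over 60 pairs).

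The members and all gene lists were chosen with earlier results of these data known. Genes passing filterByExpr (13520) were tested in edgeR 4.0.16 (R 4.3.3) by quasi-likelihood tests with TMM normalization, all 24 libraries in 1 fit (common dispersion 0.02838), and Benjamini-Hochberg adjustment over all of them at 0.05, without a fold limit; the test was checked on simulated data. CPM are counts scaled to the library total, RPKM divide these by gene length, and log2 CPM add 0.5 to each count. Correlations used Python 3.11.15 and SciPy 1.17.1. Named genes were the members, up to 4 per list by smallest p in each of the KO against WT and BC against CP comparisons, list genes with at least 50 CPM in a group, and the 3 genes most correlated with each member (5 for Jchain over all libraries), with defining markers. DESeq2 1.42.0 served as an alternative, beside the study's likelihood ratio test, other normalizations and filters, sex as a covariate, and libraries left out. Count of 0 limits cover counting error only.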

Additional observations from a re-analysis of the deposited data

Results flagged for a closer look

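Of 32 combinations of a member and a group, 5 had a mouse far from the other 5. The limit used flags about 1 in 20 such groups if values are normally distributed. It was applied to CPM and not to log2 CPM, and CPM of these genes need not be so distributed. The 5 flags therefore cannot be set against that rate. Mzb1 was 14.6 CPM (238 counts) in CP CML replicate 1, against 5.34 CPM in the next mouse, and that library had the fewest counts of all. Prdm1 was 7.11 CPM in BC CML replicate 5, against 3.56 CPM in the next. Cd79b was 37.5 CPM in WT replicate 3, against 29.4 CPM, and this is the library with the most macrophage transcripts. Pax5 was 0.912 CPM (22 counts) in miR-142 KO replicate 5, against 0.389 CPM, and 0.0426 CPM in CP CML replicate 4, which is a single count beside 5 libraries at 0.

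For 5 genes of the B lineage lists the effect of miR-142 loss differed between BCR-ABL and normal LSKs by the interaction test in edgeR. The difference in log2 fold change, BCR-ABL minus normal, was 2.00 for Rag2, 1.66 for Bank1, 1.53 for Dntt, -0.33 for Plcg2 and -0.83 for Fcgr2b. Those of Rag2, Bank1, Plcg2 and Fcgr2b were called in each of the 24 fits without 1 library.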

How the results depend on the processing

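Jchain, Pou2af1, Mzb1 and Irf4 were lower in miR-142 KO LSKs under all 33 alternatives. The number of members called ranged from 4 to 6 with each library left out, since Prdm1 (adjusted p up to 0.06539 without WT replicate 3) and Cd79a (down to 0.03443 without WT replicate 1) lie near the threshold; Cd79a was also called by the likelihood ratio test (adjusted p = 0.04461), DESeq2 (0.0399) and upper quartile normalization (0.04601). Cd79a passed when 1 of WT replicates 1, 4 and 6, miR-142 KO replicates 2 and 5 or CP CML replicate 1 was left out. With each library left out, list genes called ranged from 27 to 34 in miR-142 KO against WT, 28 to 33 in BC CML against CP CML, 32 to 38 in CP CML against WT, 27 to 40 in BC CML against miR-142 KO and 4 to 6 in the interaction. With only the samples compared, 23 list genes were called in miR-142 KO against WT. No direction of a called member or named list gene reversed. Of 41 named list genes, 8 lost their call in BC CML against CP CML LSKs without the 5 CML libraries with macrophage genes, and 3 lost theirs in miR-142 KO against WT LSKs without 4 libraries with genes of other lineages. No mean level moved by as much as 1 SD with TMM library sizes, and 8 or 9 relations with Jchain passed under other scalings. Depth limits Pax5 in all groups and Mzb1 and Pou2af1 in LSKs without miR-142. No paired analysis was possible because replicate numbers were given in accession order and pair no mice.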
